A study of Triticum aestivum with 24 samples.

Results

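In leaves of winter bread wheat, 57 of the 105200 genes measured stood higher in plants given elevated CO2 at normal temperature, with or without drought, than in the other 6 groups, which were grown at ambient CO2, at elevated temperature, or at both. The 57 genes were chosen on their measured levels. Each gene's mean log2(FPKM + 1) in the CO2 group (eC) and in the CO2+drought group (CD) had to exceed its highest mean among the other 6 groups by at least 0.8, after every library was brought to a common median (rescaled FPKM below). This difference is called the gap. FPKM counts sequenced fragments relative to transcript length and library size. Genes in 2 identifier ranges, on chromosomes 5A and 5D, were left out beforehand, and 9 genes there met the same threshold.

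The plants were Triticum aestivum of the cultivar Alana, a single genotype, and poly-A RNA of leaves was sequenced in 24 libraries. Each of 8 groups had 3 biological replicates: elevated CO2 at 700 ppm (eC), CO2 with drought (CD), CO2 with elevated temperature (CT), all 3 treatments (CTD), elevated temperature of up to 31 °C (eT), temperature with drought (TD), drought at a soil water content of 25 ± 5% (D), and untreated control (CTR). Leaves 3 and 4 of the main tiller were taken at growth stage 61, the start of flowering, and the labels do not say how many plants made up a replicate. Leaf marker genes could not be looked up, because no source used here pairs the gene identifiers with names.

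Wheat fixes carbon by the C3 pathway, in which CO2 and oxygen compete at Rubisco. Higher CO2 favours carbon fixation and usually raises leaf sugar, while heat favours the competing oxygenation and speeds leaf ageing. Bread wheat carries A, B and D subgenomes, so most genes exist as near-identical copies, and the level of any 1 copy is uncertain where fragments were divided among them. The products of the 57 genes are not annotated in the sources used here, and they are therefore described by identifier and by pattern. The chromosome is written in the identifier after its species prefix.

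Several features of the libraries bear on the values below. Before rescaling, the median level of the 32436 genes present in all libraries was 5.97 to 6.43 FPKM in the TD and CD libraries and 7.05 to 7.45 FPKM in the other 18, so CD, a high group for these genes, was raised by the rescaling. The TD and CD libraries are also labelled in another style than the other 18. When TD or CD is compared with another group, the treatment cannot be told apart from whatever else sets these libraries apart. In 7 of the 8 groups, 1 library lay between the other 2 of its group for 93.5% to 99.8% of the genes that differed more than 2-fold between those 2. The 7 libraries were eC replicate 3, CD replicate 3, CT replicate 3, CTD replicate 2, eT replicate 2, TD replicate 3 and D replicate 2. For CD replicate 3 this held for 99.8% of 1205 genes, and its value stood at 0.482 of the way from replicate 2 to replicate 1 (quartiles 0.428 and 0.534). Whether such libraries share material with the others was not tested. With these 7 libraries left out, a choice made after the data were seen, at most 9 of the 57 genes were called in any tested comparison below. The share of all genes called in that fit is not given. The number of cells or plants behind each library and the depth in counts are unknown, and lower RNA per cell and fewer cells of a type cannot be told apart in whole leaves.

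The rule fixed the gap between eC, CD and the other groups, so the levels are given as a description. TraesCS1A02G314900 had the largest gap, 2.89 on the log2 scale. It stood at 24.2, 42.5 and 34.3 rescaled FPKM in eC and 42.2, 46.3 and 43.4 in CD. In heated plants with CO2 it stood at 1.32, 6.28 and 3.27 in CT and 0, 0.517 and 1.02 in CTD, and in controls at 10.4, 6.58 and 0.107. All 6 eC and CD libraries of this gene lay above the other 18.

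TraesCS7D02G215700 followed with a gap of 2.85. Its levels were 101, 146 and 119.96 rescaled FPKM in eC and 144, 87.7 and 120.01 in CD, against 4.61, 11.5 and 6.903 in CT and 9.94, 8.78 and 3.14 in CTR. The 2 neighbouring genes TraesCS1B02G326800 and TraesCS1B02G326900 came next, with gaps of 2.58 and 2.46. TraesCS1B02G326800 stood at 61.05, 103 and 81.8 in eC and 99.9, 53.9 and 75.002 in CD, against 2.94, 7.76 and 4.59 in CT and 23.2, 22.5 and 2.45 in CTR. Its 6 high libraries again lay above all others, while its controls split into 2 high values and 1 low one.

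**Figure D1:**
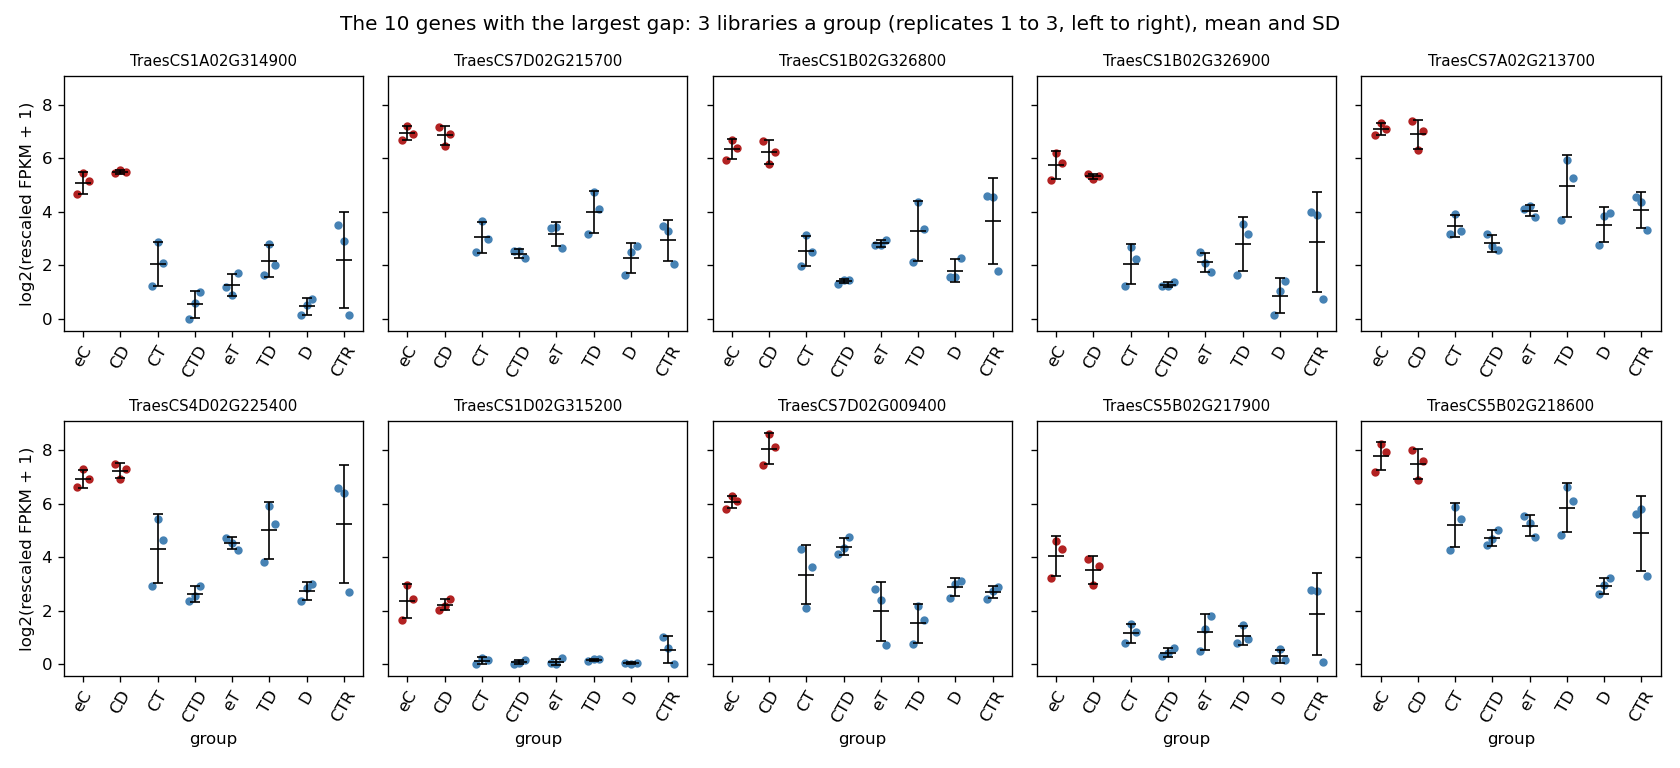
Levels, as log2(rescaled FPKM + 1), of the 10 genes with the largest gap, in the 3 libraries of each group (dots, replicates 1 to 3 from left to right; red eC and CD, blue the other groups) with the group mean and SD (n = 3). In all 10 panels the red groups lie highest, and in 9 of them, all but TraesCS7D02G009400, control replicate 3 lies below 0.5 times each of control replicates 1 and 2.

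By level, the most abundant of the 57 was TraesCS7B02G120900, at 357, 469 and 401 rescaled FPKM in eC and 411, 196 and 311 in CD. It stood at 14.8, 37.1 and 26.4 in CT, 28.96, 27.5 and 24.7 in CTD and 68.1, 58.8 and 17.9 in CTR. TD was the highest of its other 6 groups, at 58.1, 196.6 and 128.8. TD replicate 2 lay just above CD replicate 2 (196.03), so TD and CD overlapped. TraesCS5B02G218600 averaged 229 ± 78.4 in eC and 188 ± 69.2 in CD, against 39.3 ± 19.8 in CT and 36.7 ± 24.5 in CTR (SD, n = 3 each). TraesCS7A02G213700 averaged 137 ± 21.7 in eC and 124 ± 43.8 in CD, against 10.4 ± 3.43 in CT and 16.9 ± 7.06 in CTR. In TraesCS5B02G218600 and TraesCS7A02G213700 all eC and CD libraries lay above all CT libraries.

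TraesCS4D02G225400 averaged 123 ± 29.04 in eC and 152 ± 29.7 in CD, against 23.98 ± 17.6 in CT and 61.3 ± 48.8 in CTR. Its control SD is nearly as large as its control mean. TraesCS1A02G110900, at 95.3 ± 5.34 in eC and 108 ± 4.79 in CD, was abundant in every group and had a gap of only 0.81. TraesCS1D02G315200 was the scarcest of the 10 genes with the largest gaps, at 2.17, 6.71 and 4.41 in eC and 3.08, 3.51 and 4.44 in CD, and at 0, 0.165 and 0.121 in CT. Over the 57 genes, the median of the group means was 14.8 rescaled FPKM in eC and 16.9 in CD, against 4.48 in CT, 3.14 in CTD, 3.62 in eT, 3.20 in TD, 2.82 in D and 3.76 in CTR.

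**Figure D2:**
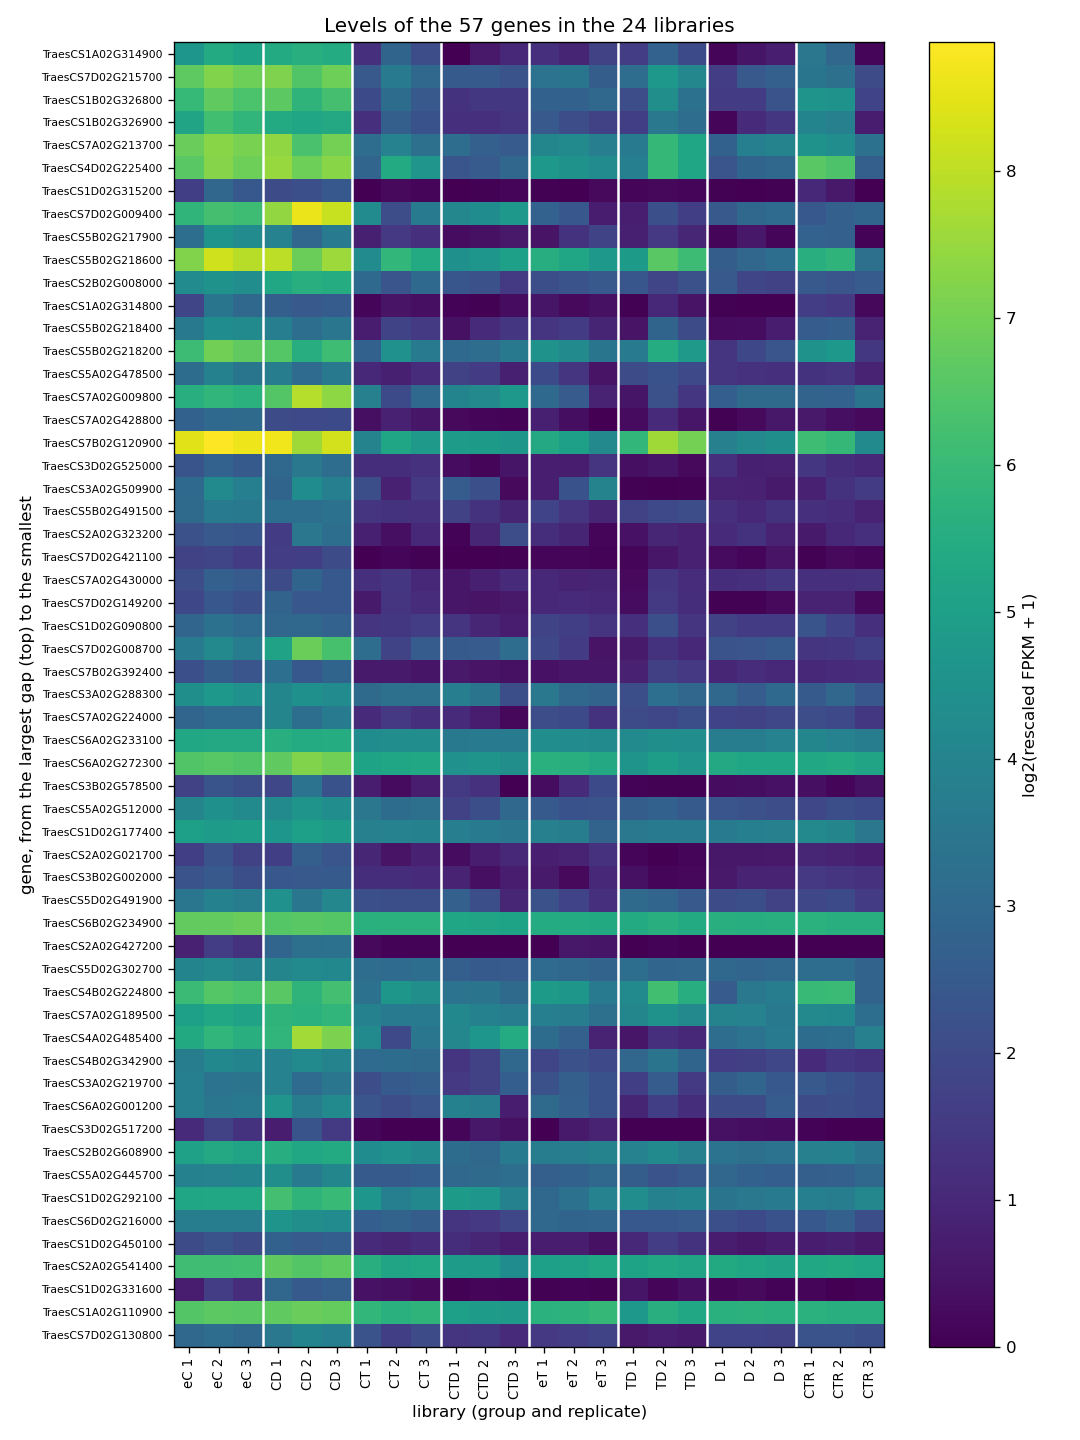
Levels of the 57 genes (rows, from the largest gap at the top) in the 24 libraries (columns, white lines between groups), as log2(rescaled FPKM + 1). The 6 columns of eC and CD are the brightest of most rows, and 49 of the 57 genes have all 6 above the other 18 libraries.

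For 49 of the 57 genes, all 6 eC and CD libraries lay above the other 18, a separation met by 1.49% of the 45359 genes tested (676 genes). Genes counted as tested reached 1 FPKM in 3 or more libraries, and all 57 did. The gap was at least 1 in 30 of the 57 and at least 2 in 4, with a median of 1.05. Just inside the threshold were TraesCS1D02G331600, TraesCS1A02G110900 and TraesCS7D02G130800, with gaps of 0.82, 0.81 and 0.80. TraesCS7D02G130800 averaged 7.21 ± 0.791 rescaled FPKM in eC and 13.03 ± 2.17 in CD, against 3.05 ± 0.856 in CT and 3.69 ± 0.283 in CTR. Just outside were TraesCS7D02G421200, TraesCS6D02G252400 and TraesCS4A02G126800, with gaps of 0.79, 0.78 and 0.77. The first of these carries the identifier next to the chosen gene TraesCS7D02G421100.

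The choice was repeated without each library in turn, and the library left out was then compared with the means of the others. When an eC or CD library was left out, 47 to 61 genes were chosen. Of the 61 genes chosen without eC replicate 1, 59 had that library above every low-group mean, and of the 59 chosen without CD replicate 1, 57 did. In the other 4 high libraries all chosen genes did so, and each of the 18 low libraries lay below eC and CD in all or all but 1 of the genes chosen without it. Some of these libraries, eC replicate 3 and CD replicate 3 among them, were named above as lying between the other 2 of their group. Their side largely followed from those 2 libraries, which took part in the choice, so it is no independent check. The median distance by which the left-out library exceeded the low groups ranged from 0.86 (eC replicate 1) to 1.48 (eC replicate 2) on the log2 scale. Membership of 33 of the 57 genes did not change under any of the 24 removals, and the largest losses came without eC replicate 2, where 47 of the 57 were chosen again. In eC, replicate 2 was the highest of the 3 in 48 genes, whereas in CD replicates 1 and 2 were highest in 28 and 23 genes.

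The name given to the set, raised by CO2 and silenced by temperature, describes the median difference with CO2 but not absence of transcript. In CT, 45 of the 57 genes kept a mean of at least 1 rescaled FPKM, against 46 of 57 in CTR, and none of them was listed at 0 in all 3 CT libraries. Without heat or drought, the median difference with CO2 (eC minus CTR) was 1.56 on the log2(rescaled FPKM + 1) scale, and with drought (CD minus D) it was 2.17. The rule set the sign of both. In heated plants, the median difference with CO2 was 0.03 without drought (CT minus eT), with 30 genes above 0 and 27 below. With drought as well (CTD minus TD) it was -0.36, with 17 above and 40 below.

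**Figure D3:**
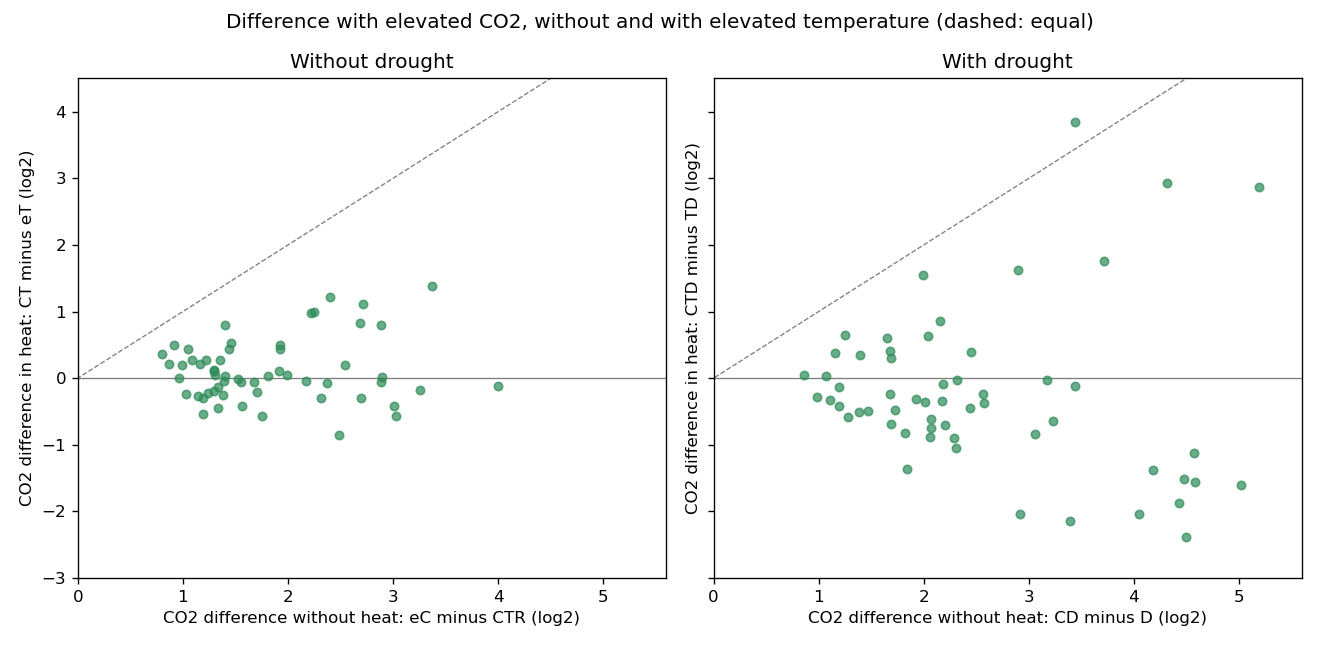
Difference with elevated CO2 in heated plants (vertical axis) against the difference at normal temperature (horizontal axis), as log2(rescaled FPKM + 1), for the 57 genes without drought (left) and with drought (right); the dashed line marks equal differences. Without drought the heated differences range from -0.86 to 1.38, and with drought from -2.38 to 3.84, where 1 gene lies above the dashed line.

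The CO2 difference that remained in heat was tested for each gene, since the rule treats the 6 low groups alike and does not fix the order among them, although it bounds how far apart they can lie. Added to temperature, CO2 raised 8 of the 57 genes and lowered none (limma, Benjamini-Hochberg adjusted p under 0.05; 7.39% and 5.98% of all genes tested were higher and lower), and 14 had an unadjusted p under 0.05. The largest rise among the called genes was that of TraesCS7D02G008700, at 8.02, 2.55 and 5.05 rescaled FPKM in CT against 2.804, 2.0002 and 0.367 in eT (log2 difference 1.21, SE 0.39, limma Benjamini-Hochberg adjusted p = 0.045). CT replicate 2 lay below the highest eT library, so the groups overlapped. The call was lost without CT replicate 1, CT replicate 3, eT replicate 2 or eT replicate 3, with differences of 0.78 to 1.34. TraesCS4B02G342900 stood at 7.61, 7.897 and 7.38 in CT and 2.61, 3.56 and 2.905 in eT, with no overlap (1.11, SE 0.26, limma Benjamini-Hochberg adjusted p = 0.0057). Only 3 genes were called without CT replicate 1, without CT replicate 3 or without eT replicate 2.

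Added to temperature and drought together, CO2 raised 9 genes and lowered 20 (16.2% and 17.8% of all genes tested were higher and lower). On the values as deposited, whose median over all genes is 0.20 for CTD minus TD, 10 were higher and 14 lower. TraesCS4A02G485400 had the largest rise, at 16.3, 24.1 and 43.5 rescaled FPKM in CTD against 0.446, 1.29 and 0.976 in TD (log2 difference 3.84, SE 0.55, limma Benjamini-Hochberg adjusted p = 2.2e-05). Its difference with CO2 under drought alone, whose sign the rule fixed, was 3.44, and its CTD level stayed under the 56.5, 199 and 137 of CD. Its CTD replicate 3 lay above eC replicate 1 (41.4), so CTD and eC overlapped. TraesCS7A02G009800, named after its values were seen, and TraesCS7D02G009400 also stood above TD and under CD in CTD. Their CTD minus TD was 2.93 and 2.87 (adjusted p = 1.5e-04 and 1.7e-04, limma, Benjamini-Hochberg adjustment). TraesCS7D02G009400 stood at 16.3, 19.1 and 25.6 in CTD and 0.675, 3.45 and 2.13 in TD. TraesCS7D02G008700 had a CTD minus TD of 1.75 (adjusted p = 0.0018, limma, Benjamini-Hochberg adjustment). In these 4 genes the difference with CO2 was present in heated, droughted plants, where their level without CO2 (TD) was the lowest of any group.

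In the other direction, TraesCS4D02G225400 fell to 4.11, 4.88 and 6.6004 rescaled FPKM in CTD, against 13.2, 59.6 and 36.6 in TD (log2 difference -2.38, SE 0.74, limma Benjamini-Hochberg adjusted p = 0.017). TraesCS7B02G120900 fell to 28.96, 27.5 and 24.7, against 58.1, 197 and 129 (log2 difference -2.04, SE 0.45, limma Benjamini-Hochberg adjusted p = 0.0017). Both genes were thus higher with CO2 at normal temperature, a sign that the rule fixed, and lower with CO2 in heated, droughted plants. TD replicate 2 held the highest TD value of each, and the call for TraesCS4D02G225400 was lost without TD replicate 2 (-1.92) or TD replicate 3 (-2.26). Without TD replicate 2, the counts for CO2 added to temperature and drought were 7 higher and 13 lower of the 57 (14.6% and 15.8% of all genes tested).

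Against the control, 5 of the 57 genes were higher in CT and none was lower (14.8% and 13.3% of all genes tested were higher and lower), and 9 had an unadjusted p under 0.05. TraesCS4B02G342900 had the largest rise, at 7.61, 7.897 and 7.38 rescaled FPKM in CT and 1.11, 1.63 and 1.48 in CTR (log2 difference 1.85, SE 0.26, limma Benjamini-Hochberg adjusted p = 1.7e-05). It averaged 7.63 ± 0.260 in CT, against 14.8 ± 2.16 in eC (SD, n = 3 each). On the values as deposited, 6 of the 57 genes were higher in CT than in the control and 1 lower. Without control replicate 3, 4 genes were higher and 10 lower in CT (11.4% and 10.3% of all genes tested). In CTD, 3 genes were higher than in the control and 20 lower (13.5% and 16.1%). TraesCS7D02G009400 rose to 16.3, 19.1 and 25.6 in CTD, against 4.43, 5.61 and 6.45 in CTR (log2 difference 1.70, SE 0.50, limma Benjamini-Hochberg adjusted p = 0.014). TraesCS4D02G225400 fell to 4.11, 4.88 and 6.6004 in CTD, against 95.5, 83.1 and 5.43 in CTR (log2 difference -2.61, SE 0.74, limma Benjamini-Hochberg adjusted p = 0.011), although its control replicate 3 lay within the CTD range. Both calls were lost without control replicate 1 (1.58 for TraesCS7D02G009400 and -1.93 for TraesCS4D02G225400), and that of TraesCS4D02G225400 without control replicate 2 (-2.03). The CTD counts were 0 higher and 13 lower without control replicate 1, and 2 higher and 12 lower without control replicate 2.

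At elevated CO2, a part of the set was higher with drought. This comparison sets CD against eC, so drought cannot be told apart from the difference between libraries described above. At ambient CO2, where few of all genes tested were called (0.891% higher and 0.917% lower), none of the 57 was called with all libraries. With drought added to CO2, 14 of the 57 genes were higher and 2 lower (11.2% and 9.40% of all genes tested were higher and lower). TraesCS7D02G008700 rose to 33.5, 117 and 78.01 rescaled FPKM in CD, against 11.7, 16.9 and 12.7 in eC (log2 difference 2.23, SE 0.39, limma Benjamini-Hochberg adjusted p = 4.8e-04). TraesCS7D02G009400 rose to 173, 389.6 and 278, against 54.9, 75.99 and 68.02 (1.997, SE 0.50, limma Benjamini-Hochberg adjusted p = 0.0075). In both, CD replicate 2 was the highest library and CD replicate 1 the lowest of CD, and CD and eC did not overlap. TraesCS2A02G427200 rose to 6.49, 8.65 and 9.19 in CD, against 0.762, 2.04 and 1.45 in eC (1.94, SE 0.16, limma Benjamini-Hochberg adjusted p = 1.1e-07), and stayed below 1 rescaled FPKM in every library of the other groups. TraesCS7A02G428800 had the largest fall, to 3.22, 2.89 and 2.99 in CD, against 5.73, 7.16 and 7.31 in eC (log2 difference -0.93, SE 0.19, limma Benjamini-Hochberg adjusted p = 0.0021). On the values as deposited, where the CD columns are lower by the factor given above and the median of all genes moves to -0.19 for CD minus eC, 9 of the 57 genes were higher and 2 lower.

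At ambient CO2, none of the 57 genes was called for drought with all libraries in the fit (limma, Benjamini-Hochberg adjustment), and 18 had an unadjusted p under 0.05. Of all genes tested, 0.891% were higher and 0.917% lower, so the absence of calls lies near the share of all genes. The difference between the 2 drought effects (CD minus eC, less D minus CTR) was positive and called in 7 genes and negative in none (5.29% and 4.98% of all genes tested), and on the values as deposited it was positive in 6 and negative in 2. The largest of the 7 was that of TraesCS2A02G427200 (1.94, SE 0.22, limma Benjamini-Hochberg adjusted p = 1.1e-05), which was listed at 0 in all D and CTR libraries. For this gene the value therefore repeats CD minus eC. TraesCS6D02G216000 stood at 23.3, 19.8 and 18.6 rescaled FPKM in CD and 12.3, 12.3 and 12.3 in eC, against 3.48, 3.03 and 3.697 in D and 4.47, 5.599 and 3.41 in CTR. Drought thus went with a higher level at elevated CO2 (0.69, SE 0.13, limma Benjamini-Hochberg adjusted p = 0.0011). Its drought effects differed by 0.995, SE 0.19, limma Benjamini-Hochberg adjusted p = 0.0021.

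**Figure D4:**
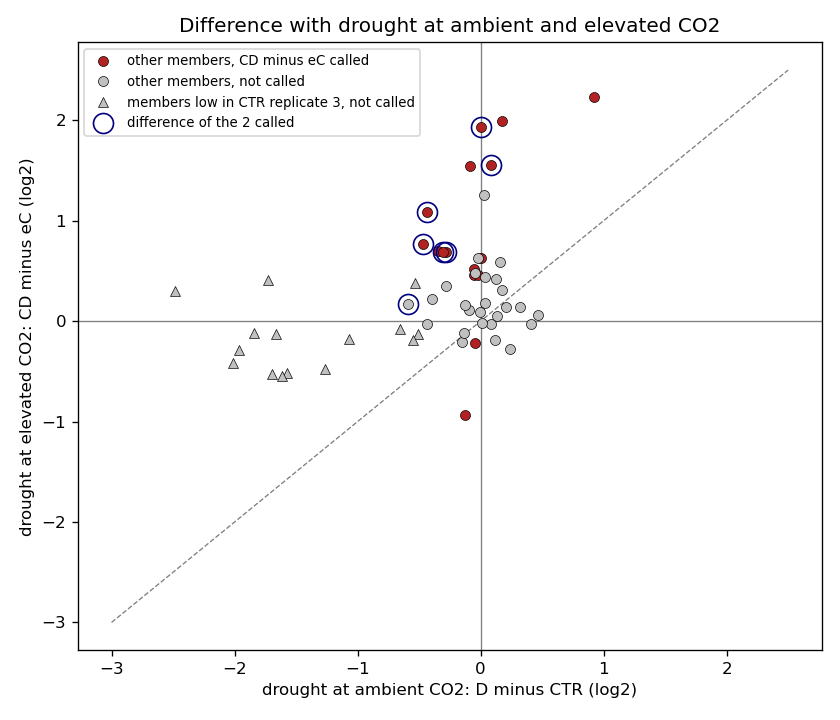
Difference with drought at elevated CO2 (CD minus eC, vertical axis) against that at ambient CO2 (D minus CTR, horizontal axis), as log2(rescaled FPKM + 1), for the 57 genes. Red marks the 16 genes called for CD minus eC, blue rings the 7 whose 2 drought effects differed, and triangles the 15 genes low in control replicate 3, which spread to -2.49 on the horizontal axis and are called on neither.

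With control replicate 3 left out, 11 genes were called for drought at ambient CO2, and with control replicate 1 or 2 left out 0 were. Which of the controls is unusual was not tested. In 15 of the 57 genes, control replicate 3 lay below 0.5 times each of the other controls, against 0.794% of all genes tested (360 genes). TraesCS4D02G225400 stood at 4.12, 6.22 and 6.99 rescaled FPKM in D and 95.5, 83.1 and 5.43 in CTR. TraesCS4B02G224800, not among the genes named by rule and chosen here after its values were seen, stood at 4.81, 10.7 and 12.7 in D and 62.1, 64.8 and 6.103 in CTR. Control replicate 3 of both lay within or near the drought range, and control replicates 1 and 2 several-fold above it.

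Without control replicate 3, drought lowered 11 of the 57 genes and raised none (0.778% and 0.465% of all genes tested), and all 11 were among the 15. The largest was TraesCS4D02G225400 (log2 difference -3.76, limma Benjamini-Hochberg adjusted p = 4.7e-04). TraesCS1A02G314900 had a difference of -2.75, limma Benjamini-Hochberg adjusted p = 6.3e-04. Leaving out a library because it is low raises the control mean by construction, and the 15 genes were picked after their values were seen, so the share is a description. The difference between the drought effects was then called in 20 genes, all positive (4.46% of all genes tested were positive and 3.93% negative). For drought at elevated CO2 (CD against eC), none of the 15 was called with all libraries. Control replicate 3 enters that test through the spread shared by all groups, and without it again none of the 15 was called, while 13 of the other 42 were higher and 2 lower (10.8% and 9.05% of all genes tested). Without control replicate 3 the rule chose 52 genes, and TraesCS4D02G225400 and TraesCS5B02G217900 were not among them.

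The same 15 genes had a common order among the replicates of some other groups, which their choice did not use, but not of all. All 15 were highest in replicate 2 and lowest in replicate 1 of eC, of CT and of TD. In eC the order was not theirs alone, as 48 of all 57 genes were highest in replicate 2. Members outside the 15, such as TraesCS7A02G189500 and TraesCS2B02G608900, were also highest in replicate 2 of TD. How many of the 57 were so in TD or CT was not counted, so the order cannot be called particular to the 15. In D, 13 were highest in replicate 3 and 12 were lowest in replicate 1. In CD, 13 were highest in replicate 1 and 13 were lowest in replicate 2. In eT, 7, 4 and 4 of the 15 were highest in replicates 1, 2 and 3, and in CTD 3, 2 and 10 were. Their median level was 3.33, 19.8 and 9.16 rescaled FPKM in TD replicates 1, 2 and 3, and 14.95, 13.7 and 1.71 in CTR replicates 1, 2 and 3. In eT it was 5.79, 5.69 and 5.200, and in CTD 1.48, 1.73 and 1.72. These medians differed little between replicates of eT and of CTD and several-fold within CTR and within TD. The values move with the library, and what differed between these libraries was not tested. As copies on the A, B and D subgenomes may share fragments, the 15 are not independent readings.

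**Figure D5:**
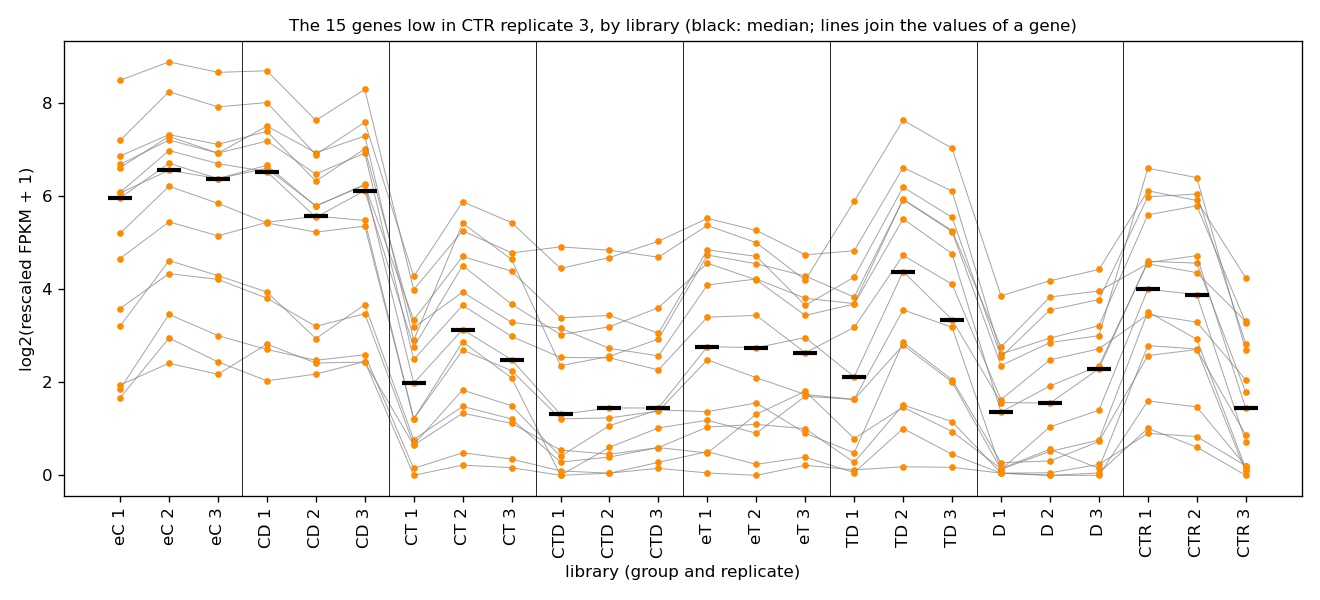
Levels, as log2(rescaled FPKM + 1), of the 15 genes whose control replicate 3 lay below 0.5 times each of the other controls, in the 24 libraries; each dot is a gene, lines join the values of a gene and black bars are the medians. All 15 genes are highest in replicate 2 of eC, CT and TD, while in eT and CTD they share no such order.

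Temperature without CO2 was compared in the absence and in the presence of drought. Against the control, eT raised 2 genes and lowered 3 (8.26% and 7.71% of all genes tested were higher and lower). TraesCS6D02G216000 rose to 6.79, 6.23 and 6.47 rescaled FPKM in eT, against 4.47, 5.599 and 3.41 in CTR (log2 difference 0.47, SE 0.13, limma Benjamini-Hochberg adjusted p = 0.021). TraesCS3B02G002000 fell to 0.565, 0.163 and 1.05, against 1.81, 1.596 and 1.42 (-0.75, SE 0.16, limma Benjamini-Hochberg adjusted p = 0.0027), with no overlap in either gene. The call for TraesCS6D02G216000 was lost without eT replicate 1 (0.44), control replicate 1 (0.47) or control replicate 3 (0.32). Without control replicate 3 the counts were 1 higher and 11 lower (5.36% and 5.49%), and without control replicate 1 they were 1 higher and 2 lower.

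Added to drought, temperature raised 20 genes and lowered 10 (20.8% and 22.3% of all genes tested). TraesCS5B02G218600 rose to 27.3, 96.6 and 67.7 rescaled FPKM in TD, against 5.09, 6.71 and 8.27 in D (log2 difference 2.92, SE 0.55, limma Benjamini-Hochberg adjusted p = 2.4e-04). TraesCS4A02G485400 fell to 0.446, 1.29 and 0.976 in TD, against 8.07, 9.54 and 11.98 in D (-2.52, SE 0.55, limma Benjamini-Hochberg adjusted p = 9.8e-04). Of the 15 genes low in control replicate 3, 12 rose, and of the other 42, 8 rose and 10 fell. Without TD replicate 2 the counts were 9 higher and 10 lower (18.6% and 20.5%), and 4 of the 15 rose. Without D replicate 1 they were 10 higher and 8 lower.

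In heated plants at ambient CO2, the 57 genes were called for drought at about the share of all genes. TD against eT had 10 genes higher and 10 lower (18.0% and 19.4% of all genes tested), and 6 higher and 13 lower on the values as deposited. TraesCS7B02G120900 rose to 58.1, 197 and 129 rescaled FPKM in TD, against 40.2, 30.9 and 17.2 in eT (log2 difference 1.99, SE 0.45, limma Benjamini-Hochberg adjusted p = 0.0018). TraesCS3A02G509900 was listed at 0.0338, 0 and 0.0334 in TD, against 0.689, 3.77 and 14.8 in eT, whose replicate 3 is by far the highest (-2.30, SE 0.62, limma Benjamini-Hochberg adjusted p = 0.0065). Without eT replicate 3 this gene's difference was -1.47 and its call was lost. The counts were 5 higher and 8 lower without eT replicate 3, and 6 in each direction without TD replicate 3.

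With CO2 and heat present, drought lowered 14 genes and raised 1, TraesCS5A02G445700 (CTD against CT; 13.4% of all genes tested were lower and 9.53% higher). Among the called genes TraesCS6D02G216000 had the largest fall, to 1.56, 1.7996 and 2.74 rescaled FPKM in CTD, against 5.34, 6.16 and 5.13 in CT (log2 difference -1.13, SE 0.13, limma Benjamini-Hochberg adjusted p = 6.0e-06). TraesCS5A02G445700 stood at 6.97, 7.38 and 8.28 in CTD and 4.65, 4.69 and 5.34 in CT (0.54, SE 0.14, limma Benjamini-Hochberg adjusted p = 0.01). Neither pair of groups overlapped. TraesCS6D02G216000 thus rose with drought under CO2 and fell with drought under CO2 and heat. Over the 57 genes the median of CTD minus CT was -0.42, against -0.03 over all genes tested, and the median of CD minus eC was 0.16, against 0.00. Across the 9 tested differences between low groups, 48 of the 57 genes (84.2%) were called in at least 1, as were 73.1% of all genes tested.

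By position, the 57 genes lay on 20 of the 21 chromosomes, with 23 on the A subgenome (40.4%), 16 on B (28.1%) and 18 on D (31.6%), against 33.7%, 32.4% and 33.9% of all genes tested. Chromosome group 7 held 14 (24.6%, against 14.1% of all genes tested) and group 1 held 11 (19.3%, against 13.2%). Most lay singly. Runs of members within 5 places of each other in identifier order were found on chromosomes 1A, 1B and 5B and held 8 genes. The pair on 1A was TraesCS1A02G314800 and TraesCS1A02G314900, and the pair on 1B was TraesCS1B02G326800 and TraesCS1B02G326900.

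The longest run, on chromosome 5B, held TraesCS5B02G217900, TraesCS5B02G218200, TraesCS5B02G218400 and TraesCS5B02G218600. Their levels differed widely, with means of 16.7 ± 7.77, 97.9 ± 29.4, 15.9 ± 4.32 and 229 ± 78.4 rescaled FPKM in eC (SD, n = 3 each) in identifier order. In CT the means were 1.27 ± 0.545, 13.1 ± 8.04, 1.65 ± 0.996 and 39.3 ± 19.8. All 4 were highest in replicate 2 of eC and of CT, as the other genes low in control replicate 3 were. Of the 3 identifiers listed between them, TraesCS5B02G218500 was also highest in eC and CD, at a low level (gap 0.59). TraesCS5B02G218100 had no gap and TraesCS5B02G218000 was listed at 0 in every group.

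The 9 genes of the left-out ranges on 5A and 5D had gaps of 1.32 to 2.30. TraesCS5A02G219300 stood at 41.3, 85.1 and 61.4 rescaled FPKM in eC and 64.3, 20.4 and 41.1 in CD, and at 2.96, 3.73 and 3.71 in CT and 3.55, 2.52 and 1.698 in CTR, with the same replicate order in eC and CD as the 5B run.

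Genes beside the members lay close to all genes tested in the same contrasts. Among 238 tested genes within 5 places of a member that were not members, 20.6% were higher and 18.5% lower in eC than in CTR, against 16.4% and 18.5% of all genes tested. In CD against D, 22.7% were higher, against 20.0%. In CT against eC, 12.6% were lower, against 10.1%, and in CTD against CD, 24.4%, against 21.9%. The median difference of the neighbours for eC minus CTR was -0.01 on the log2 scale, against -0.04 over all genes tested and 1.56 over the 57 members, whose value the rule fixed.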

How the data were processed

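Leaf messenger RNA was measured in 24 libraries, 3 in each of 8 groups named by the labels. The deposited values were FPKM, made by the authors before deposit; the tools listed, without their roles, are DESeq2, Cuffdiff, HISAT2 and Trim Galore 0.4.1, per the submitters' processing notes. For the genome build, the annotation and the treatment of near-identical copies, the sources used here give nothing, and depth in counts is unknown. RefSeq's gene table for wheat held 0 of the 105200 identifiers, so no pathway list, marker list or sequence could be used.

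Each library was divided by its median over the 32436 genes with at least 1 FPKM in all 24 libraries and multiplied by the mean of those medians. Members and lists were chosen with earlier results of these data known. Levels were transformed as log2(rescaled FPKM + 1), which understates changes of low genes. A filter of 1 FPKM or more in any 3 libraries left 45359 genes, tested with limma 3.58.1 in R 4.3.3 (1 coefficient per group, mean-variance trend, all 24 libraries, two-sided), with Benjamini-Hochberg adjustment within each comparison. A p-value measures only the spread between libraries of a group. In simulated data for CD minus eC with 45359 genes, changes of 0.5, 1 and 2 on the log2 scale were recovered in 34.3%, 89.6% and 98.5% of genes, and 6 unchanged genes were called. The changes were put only into genes with an eC mean above 2 on the log2(rescaled FPKM + 1) scale. Noise was normal and independent for each library, so lower genes and libraries lying between others of their group are not covered. Genes named were those with the 10 largest gaps, the 6 highest levels, the 3 on each side of the threshold, the largest called rise and fall of each tested comparison, and the longest run of neighbours. Alternatives were other thresholds, pseudocount, filter and scaling, weights for library quality, fits restricted to the groups compared, a block for replicate number, and removal of each library in turn. Fits without the 7 intermediate libraries, and for CD against eC without control replicate 3, were added after the data were seen.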

Additional observations from a re-analysis of the deposited data

Results flagged for a closer look

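In 5 of the named genes the difference with drought at elevated CO2 differed from that at ambient CO2, by the interaction of drought and CO2 at normal temperature (limma, 3 libraries in each of the 4 groups). Of these groups only CD is among the libraries set apart by lower medians, and drought cannot be told apart from that. On the log2 scale the difference between the 2 drought effects was 1.94 for TraesCS2A02G427200 (adjusted p = 1.1e-05), 1.48 for TraesCS1D02G331600 (adjusted p = 2.0e-04) and 1.23 for TraesCS7D02G130800 (adjusted p = 5.2e-04). It was 0.995 for TraesCS6D02G216000 (adjusted p = 0.0021) and 0.76 for TraesCS3B02G002000 (adjusted p = 0.036). TraesCS1D02G331600 stood at 6.71, 4.71 and 5.51 rescaled FPKM in CD and 0.655, 2.04 and 1.23 in eC, with at most 0.404 in the other libraries. TraesCS2A02G427200 was listed at 0 in all D and CTR libraries. As D and CTR lie at or near 0 in both genes, their result mostly repeats CD minus eC. It says little about drought at ambient CO2. TraesCS7D02G130800 stood at 10.7, 15.05 and 13.3 in CD and 6.75, 8.12 and 6.75 in eC, against 2.47, 2.43 and 2.27 in D and 3.87, 3.83 and 3.36 in CTR. In TraesCS3B02G002000 the difference came with 0.541, 0.849 and 0.821 in D and 1.81, 1.596 and 1.42 in CTR, while CD and eC overlapped.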

How the results depend on the processing

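The rule chose 103 genes at a threshold of 0.6, 30 at 1.0 and 133 with a pseudocount of 0.1, and 58 on the values as deposited, 51 of them among the 57. Without 1 library it chose 47 to 61. With a pseudocount of 0.1 the median over members was 2.29 for eC minus CTR, 2.76 for CD minus D, -2.03 for CT minus eC and -2.82 for CTD minus CD, and 1 member was called for D against CTR and 4 for the difference between drought effects. Library quality weights, whose estimation stopped before full convergence, gave 31 called members for CD against eC, 18 for D against CTR, 40 for TD against eT, 39 for CTD against CT, 20 for eT against CTR, 20 for CT against eT, 54 for CTD against TD, 14 for CT against CTR, 43 for CTD against CTR and 33 for the difference between drought effects. A fit to only the groups compared gave 3 for D against CTR, 10 for TD against eT, 4 for CT against eT, 16 for CTD against TD, 9 for CT against CTR and 15 for the difference between drought effects. Without the filter there were 13 for TD against eT, 19 for TD against D, 4 for CT against eT, 19 for CTD against TD and 15 for CTD against CTR. Without the 7 intermediate libraries, which leaves 2 libraries in those groups, there were 2 for CD against eC, 5 for TD against eT, 7 for CTD against CT, 0 for eT against CTR (5 at an unadjusted p under 0.05), 9 for TD against D, 0 for CT against eT (6 at an unadjusted p under 0.05), 8 for CTD against TD, 9 for CTD against CTR and 2 for the difference between drought effects. For the alternatives to the main fit, shares over all genes tested are given only without control replicate 3 and without TD replicate 2. In the others, a changed count of members cannot be told apart from a change in calls over all genes. The number of libraries or genes in the fit also differed in some of them, and the cause of these shifts was not tested.

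With each library of the compared groups left out in turn, the called members ranged from 11 to 15 for CD against eC, 0 to 11 for D against CTR, 12 to 19 for TD against eT, 13 to 18 for CTD against CT, 3 to 12 for eT against CTR, 18 to 27 for TD against D, 3 to 8 for CT against eT, 20 to 34 for CTD against TD, 4 to 14 for CT against CTR, 13 to 26 for CTD against CTR and 5 to 20 for the difference between drought effects. The replicate block, with 15 members called for CD against eC and 28 for TD against D, moved no count of calls by over 1.5 times. Same-numbered libraries did not deviate together consistently (correlations of -0.284 to 0.436 over the comparisons, under 0.1 for at least 1 number in each), so the numbers were not taken as pairs. Some did deviate together, such as replicate 1 of CTD and CD (0.436) and replicate 1 of TD and D (0.389). Of the 17 single-gene results taken through the alternatives, none changed direction; 11 were no longer called without the 7 intermediate libraries, 4 in a fit to only the groups compared, 2 without the filter, 1 with a pseudocount of 0.1 and 1 under the block. Median-ratio factors and values as deposited moved no total of calls over 1.5 times, but on the values as deposited the higher calls were 9 for CD against eC (14 after rescaling) and 6 for TD against eT (10 after rescaling), and the difference between drought effects was negative in 2 genes (0 after rescaling). Precision is limited by 3 libraries a group and by unknown depth.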
